A study of Mus musculus with 147 samples.

Results

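The proteasome subunit genes of the mouse male germline are described here, from the epiblast to round spermatids. The members are the rows of the count table whose gene symbol starts with Psm, followed by a letter from a to g and a digit. This rule gave 50 of 31053 rows. One of them, Psmc3ip, encodes HOP2, a meiotic recombination factor that shares only the name, and it was kept apart, which left 49 subunits. Grouped by symbol, they comprise 8 alpha (Psma) and 11 beta (Psmb) subunits of the 20S core, and 6 ATPases (Psmc) and 14 other genes (Psmd) of the 19S cap. There are also 5 activators (Psme), 1 inhibitor (Psmf1) and 4 assembly chaperones (Psmg). The 14 Psmd genes, called other cap subunits below, include chaperones of the ATPase ring such as Psmd5 and Psmd10. The rule used no measured value.

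A modified STRT-seq protocol was applied to single cells of 28 time-points. It counts each transcript once, by its unique molecular identifier (UMI), at its 3′ end. Wild-type embryos and testes came from C57BL/6 females mated with males that carry both the Blimp1-mVenus and the Stella-ECFP reporter (BVSC), so the reporters were shared by all groups. Cells of E8.5 to E10.5 were sorted from whole embryos and those of E11.5 to E18.5 from gonads, as reporter-positive or negative, and several embryos were pooled for a replicate. From E14.5 germ cells were sorted by Stella-ECFP alone, since the Blimp1-mVenus signal declines from then. The sort thus changed between the gonadal and the arrest window compared below. After birth each replicate was the testis of a single animal, from which cells with the look of germ cells were picked, and cells of PND30 were partly sorted by DNA content. The table of cells also gives a DNA content at PND14, where 188 cells of replicate 1 are marked 4N and 285 are marked 2N, as are 94 cells of replicate 2. Cells before E11.5 were in most cases not sexed. A pool is the cells of 1 time-point and replicate. Pools were compared in windows: migrating primordial germ cells (E9.5 to E10.5, 5 pools), gonadal germ cells (E11.5 to E13.5, 6 pools), germ cells in and around mitotic arrest (E14.5 to PND0, 11 pools), early postnatal germ cells (PND1 to PND8, 16 pools), later spermatogonia (PND10 to PND14, 3 pools), spermatocytes (PND12 to adult, 8 pools) and round spermatids (PND30 to adult, 5 pools). Cells of E6.5 to E8.5 were taken whatever their type. Levels are in CPM, the counts of a gene in every 1000000 UMIs of its pool and class.

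The proteasome degrades proteins that carry ubiquitin chains. Its 20S core is a barrel of alpha and beta rings, in which the beta subunits Psmb5, Psmb6 and Psmb7 cut the substrate. Interferon-induced immunoproteasomes hold Psmb8, Psmb9 and Psmb10 in place of Psmb5, Psmb6 and Psmb7, respectively. The ends of the barrel bind the 19S cap, which recognises and unfolds ubiquitinated proteins with its ATPase ring, or an activator such as PA28 (Psme1 with Psme2, or Psme3 alone) or PA200 (Psme4). Psma8 is an alpha subunit made in the male germline, a paralogue of Psma7, and spermatoproteasomes that hold it are needed for meiosis in male mice.

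Cells were given a class by clustering without the proteasome genes, and a class ends in "-like" because it rests on marker genes. Of 11598 cells, 4664 were germ-like, 2134 spermatocyte-like, 761 round spermatid-like, 507 Sertoli-like and 674 interstitial. Ddx4, the germ cell marker, was at 170 to 557 CPM in the germ-like pools of E11.5 to PND0 and at 6.92 to 106.8 CPM in the 29 somatic pools, so the somatic pools also held germ cell RNA. Clusters led by genes of other cells were given no class. These were 570 germ cells (E17.5 replicate 1, PND8 replicate 1 and most of PND12 and PND14), 324 spermatocytes (320 of them of adult replicate 1) and 83 somatic cells of E16.5 and E17.5. Each result was also computed with these cells taken in, and is given where that changed a count of calls by over 1.5 times. Median UMIs per cell were 178018 to 500849 in the pools, and the class pools of the germ line held 2709122 to 134171886 UMIs. The fit across all genes was edgeR's quasi-likelihood test, and every adjusted p below comes from it, after Benjamini-Hochberg adjustment over all genes tested. A gene rose or fell where the adjusted p was under 0.05.

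The mean level of the 49 subunits was lower in the arrest window than around it, and lowest in round spermatids. It was 319 ± 8.499 CPM in migrating germ cells (mean ± SD over pools, n = 5), 322 ± 19.9 in gonadal germ cells (n = 6) and 267 ± 30.9 from E14.5 to PND0 (n = 11). It was 299 ± 23.1 CPM at PND1 to PND8 (n = 16) and 302 ± 25.8 at PND10 to PND14 (n = 3). Within the arrest window the mean level was 294 and 319 CPM in the 2 pools of E14.5 and 231 to 257 CPM in the 4 pools of E18.5 and PND0. Spermatocytes fell into separate ranges, 246, 260 and 272 CPM at PND12 and PND14 against 171 to 193 CPM in the 5 pools of PND30 and later. The 5 pools of round spermatids were lowest, at 126.3, 132.1, 137.9, 139.96 and 156.6 CPM. As a share of all UMIs the 49 genes made up 1.51 to 1.61% in migrating germ cells and 0.619 to 0.768% in round spermatids. Pools of E6.5 and E7.5, whose cells fell in clusters led by genes of epiblast, mesoderm, trophoblast or visceral endoderm, had mean levels of 273 to 329 CPM. No test was made on these means.

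**Figure D1:**
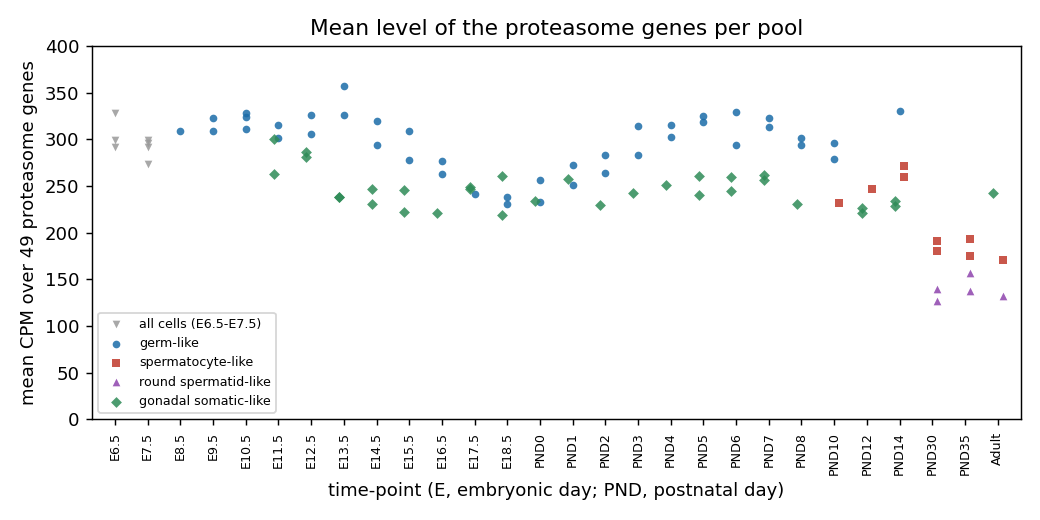
Mean CPM over the 49 proteasome subunit genes (y axis) in each pool, by time-point (x axis), with 1 point for each pool and class. Germ-like pools lie near 300 CPM with a dip at E17.5 to PND0 (231 to 257 CPM), spermatocyte-like pools of PND30 and later lie at 171 to 193 CPM and round spermatid-like pools at 126.3 to 156.6 CPM.

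Psma8 and Psma7 are described first. In these mixed cells of E6.5 and E7.5 Psma8 was low, at 0.637 to 4.65 CPM in 7 pools. In migrating germ cells it was 4.08 and 5.37 CPM at E9.5 and 12.2, 14.9 and 17.3 CPM at E10.5. In gonadal germ cells it was 27.4 to 49.95 CPM, with a median of 45.2 CPM. The 2 windows did not overlap, and Psma8 rose 3.80-fold between them (log2 difference 1.93, SE 0.289, adjusted p = 1.27e-05). It was the only subunit that passed the test there. The call was lost without replicate 2 (log2 difference 1.79). Psma8 then stood at 43.6 to 89.5 CPM from E14.5 to PND0, and at 69.1 to 99.6 CPM from PND1 to PND8. Neither of these windows differed from the one before it by the test (log2 differences 0.26 and 0.34, adjusted p = 0.322 and 0.121). Into the arrest window, though, Psma8 was called higher by DESeq2 (0.55, adjusted p = 0.0325), by library size alone (0.73, adjusted p = 0.00338) and with every cell thinned (0.55, adjusted p = 0.0471). After it, the fit of only the compared windows called it higher (0.32, adjusted p = 0.0367).

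In spermatocytes Psma8 was at 386 CPM at PND12, 156 and 359 CPM at PND14 and 324 to 383 CPM in the 5 pools of PND30 and later. The 3 pools of later spermatogonia had 74.9, 76.2 and 153 CPM, all below the lowest spermatocyte pool. Psma8 rose 4.84-fold (log2 difference 2.27, SE 0.351, adjusted p = 2.49e-06). It fell 2.93-fold from spermatocytes to round spermatids (log2 difference -1.55, SE 0.273, adjusted p = 5.19e-06), where the 5 pools had 69.4, 80.5, 116.98, 121.2 and 181 CPM. The ranges of these classes overlap only through PND14 replicate 1 and PND35 replicate 2. Both calls were lost without replicate 2 (log2 differences 2.44 and -1.44).

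Psma7, the somatic alpha subunit, was at 616 to 702 CPM in migrating germ cells and at 476 to 688 CPM from PND1 to PND8. Spermatocytes had 226, 309 and 367 CPM at PND12 and PND14, and 49.3 to 67.9 CPM from PND30. The 5 round spermatid pools had 17.1 to 35.3 CPM. All spermatocyte pools were below all pools of later spermatogonia (548 to 693 CPM), and all round spermatid pools below all spermatocyte pools. Psma7 fell 3.19-fold into spermatocytes (log2 difference -1.68, SE 0.280, adjusted p = 9.33e-06) and 5.04-fold into round spermatids (log2 difference -2.33, SE 0.278, adjusted p = 1.06e-09). The first of these calls was lost without replicate 2 (log2 difference -1.62).

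Because each transcript is counted once at its 3′ end, the levels of the 2 paralogues can be set side by side without a correction for length, apart from differences in capture. Psma8 made up 1.70% of Psma7 plus Psma8 in migrating germ cells (median over pools, range 0.659 to 2.58%). The share was 6.15% in gonadal germ cells, 12.3% from E14.5 to PND0 and 11.2% from PND1 to PND8. In spermatocytes it was 29.8% and 53.7% at PND14, 63.1% at PND12 and 83.8 to 86.8% from PND30. In round spermatids, where both genes were lower, it stayed at 79.5 to 84.2%.

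The exchange was also seen between clusters of the same animal. At PND14 replicate 2, a spermatocyte cluster of 203 cells led by Prss50, Rad51ap2 and Prdm9, genes of early meiosis, had 198 CPM of Psma8 and 462 CPM of Psma7. A cluster of 78 cells led by Gml, Abo and Meiob had 576 CPM of Psma8 and 127.3 CPM of Psma7. Psme1, a PA28 subunit, was at 144.5 CPM in the first and 16.8 CPM in the second. These values come from 1 animal and have no test.

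**Figure D2:**
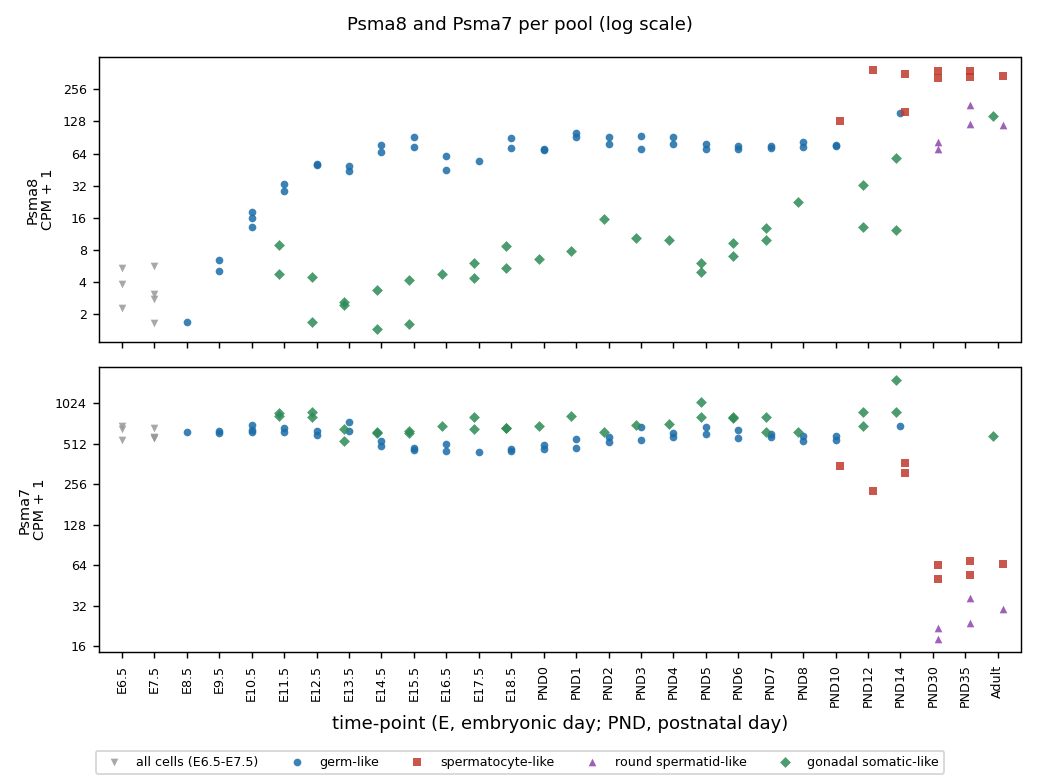
CPM plus 1 on a log axis (y) of Psma8 (top) and Psma7 (bottom) in each pool, by time-point (x). Psma8 in germ-like pools climbs from 0.701 CPM at E8.5 to 42.5 to 49.95 CPM at E12.5 and E13.5 and is at 156 to 386 CPM in spermatocyte-like pools from PND12, while Psma7 falls to 49.3 to 67.9 CPM in spermatocyte-like pools from PND30.

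The bases before the start of Psma7 are shown because Psma7 is the paralogue of Psma8. The sequence is RefSeq's, on GRCm38.p6, chr2:180042465-180042714, minus strand, 5′ to 3′. It runs up to the base before the RefSeq start farthest upstream, and capitals mark every match of CCAAT and of GGGCGG on either strand.
Psma7: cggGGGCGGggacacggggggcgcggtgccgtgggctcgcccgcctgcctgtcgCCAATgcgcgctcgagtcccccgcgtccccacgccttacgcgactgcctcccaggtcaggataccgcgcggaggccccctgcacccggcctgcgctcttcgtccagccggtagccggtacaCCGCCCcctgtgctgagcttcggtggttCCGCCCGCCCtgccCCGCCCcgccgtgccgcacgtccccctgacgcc
It holds 1 CCAAT box and 5 GC boxes. The table of promoters used here held 41 of the 49 subunits, and Psma8 was not among them. Psma7 itself lies at chr2:180036374-180042433 on mm10, on the minus strand.

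From migrating to gonadal germ cells 1 of 49 subunits rose, Psma8, and none fell. Over all 26147 genes tested 5.29% were called, 3.404% as higher and 1.885% as lower. At an unadjusted p under 0.05 there were 3 subunits, 1 higher and 2 lower. DESeq2 called 2. The median log2 difference of the 49 was -0.002, and that of all genes was 0.0.

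From gonadal germ cells to the arrest window 38 of 49 subunits fell and 3 rose, with a median log2 difference of -0.64. Over all genes tested 61.4% were called, 18.53% as lower and 42.91% as higher, and the median of all genes was 1.11. By library size alone, which moves the median of all genes by 0.537, 17 subunits fell and 9 rose, and by DESeq2's size factors 30 fell and 7 rose. All 6 ATPases of the cap fell, against 2 by library size alone, as did 12 of its 14 other subunits (7 by library size) and 7 of 8 alpha subunits (2 by library size). Of the 11 beta subunits 6 fell and 3 rose, which library size turned to 2 and 5. Of the 5 activators 4 fell and of the 4 chaperones 3. Without replicate 2 the calls of all families numbered 19. The largest falls were those of Psme2b, Psma3 and Psme2. Psma3, an alpha subunit, was at 535 to 683 CPM in gonadal germ cells and 126.7 to 459 CPM in the arrest window, without overlap, and fell 3.30-fold (log2 difference -1.72, SE 0.240, adjusted p = 1.17e-07). Psmd7, a subunit of the cap that supports the deubiquitinase Psmd14, was at 376 to 405 CPM and then 124.8 to 314 CPM, and fell 2.71-fold (adjusted p = 8.06e-07).

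The arrest window was not uniform. PA28 subunits fell late in it. Psme2 was at 398 and 386 CPM at E14.5, 238 and 344 CPM at E15.5, 95.2 and 114.3 CPM at E16.5, 64.7 CPM at E17.5 and 77.7 to 104.3 CPM at E18.5 and PND0. It was back at 315 to 489 CPM from PND3 to PND8. Over the window Psme2 fell 2.94-fold (log2 difference -1.55, SE 0.536, adjusted p = 0.0117), and Psme1 fell 2.76-fold (adjusted p = 0.0102). Both calls were lost without either replicate (log2 differences -1.61 and -1.51 for Psme2, -1.45 and -1.48 for Psme1), that of Psme2 also without E16.5 and E17.5 (-1.27) and that of Psme1 by library size alone (-1.06). Psmf1, which encodes the inhibitor PI31, went the other way in level, from 67.9 and 74.3 CPM at E14.5 to 145.4 to 169 CPM in the 4 pools of E18.5 and PND0, but its difference over the window did not pass the test (log2 difference 0.36, adjusted p = 0.11). DESeq2 and library size alone each called it higher.

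From the arrest window to PND1 to PND8, 17 of 49 subunits rose and none fell, with a median log2 difference of 0.29. Over all genes tested 39.4% were called, 15.68% as higher and 23.69% as lower. By library size alone 13 rose and 4 fell, and by DESeq2 14 rose and 5 fell. Only 9 were called without E16.5 and E17.5, and 6 and 2 without replicates 1 and 2. The largest rises were those of Psmb9, Psmb10 and Psme2b. Psmd7 rose 2.07-fold (log2 difference 1.05, SE 0.182, adjusted p = 1.41e-05) and Psma3 rose 1.81-fold (adjusted p = 5.9e-04). Psma7 rose 1.36-fold (adjusted p = 0.0393), a call that was lost in 8 alternatives, among them DESeq2 (log2 difference 0.25).

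The catalytic beta subunits come next. Psmb5, which gives the chymotrypsin-like activity, was at 498 to 615 CPM from E14.5 to E16.5, 281 CPM at E17.5 and 208, 212, 216 and 221 CPM in the 4 pools of E18.5 and PND0. It was at 248 to 397 CPM at PND1 and PND2 and at 383 to 556 CPM from PND3 to PND8. Its immunoproteasome counterpart Psmb8 was close to absent in gonadal germ cells, with 8 UMIs in the 6 pools together. It was at 0.0 to 1.56 CPM from E14.5 to E16.5, at 11.1 CPM at E17.5 and at 23.8, 25.49, 26.03 and 26.1 CPM in the pools of E18.5 and PND0. It was at 7.66 to 22.8 CPM at PND1 and PND2 and at 0.0 to 7.43 CPM from PND3 to PND8. Among germ-like pools those with the lowest Psmb5 were thus those with the highest Psmb8, and at its highest Psmb8 was still below Psmb5. Over the arrest window Psmb5 fell 1.88-fold (log2 difference -0.91, SE 0.232, adjusted p = 9.48e-04) and Psmb8 rose (log2 difference 6.87, SE 1.36, adjusted p = 4.6e-05). The fitted size of the rise rests on 8 UMIs before it and is not a bound. The call of Psmb5 was lost without replicate 2 (-0.89).

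Psmb9, the counterpart of Psmb6, had 9 UMIs in the 6 gonadal pools. It was at 0.607 to 11.6 CPM in the arrest window and at 8.69 to 19.1 CPM from PND1 to PND8. These windows overlap only through E17.5 and PND0. It rose into the arrest window (log2 difference 5.57, SE 1.08, adjusted p = 3.38e-05) and again after it (log2 difference 1.66, SE 0.620, adjusted p = 0.0291). The latter call was lost in 4 alternatives, among them library size alone (1.40). Psmb6, the standard subunit, was the most even of the catalytic genes, at 534 to 840 CPM in all germ-like pools of E11.5 to PND0. Its fall into the arrest window (log2 difference -0.27, adjusted p = 0.0468) turned into a rise of 0.04 by DESeq2 and of 0.23 by library size alone.

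Psmb10, the counterpart of Psmb7, was the most abundant of the immunoproteasome genes. It was at 217 to 272 CPM at E6.5, 48.98 to 101.2 CPM in migrating and 21.6 to 55.9 CPM in gonadal germ cells. It was at 45.4 to 119.1 CPM in the arrest window and 110 to 259 CPM from PND1 to PND8, and rose 3.00-fold between these (log2 difference 1.58, SE 0.234, adjusted p = 9.04e-07). Psmb7 was found at only 0.765 to 25.6 CPM in the pools of every class. The gene Nek6 overlaps the last 500 bases of Psmb7 on the other strand, and whether strand was used in counting is not given in the sources used here, so the level of Psmb7 is uncertain. The same kind of overlap was found for Psmb8 (Gm20496), Psmb10 (Gm16156), Psma3 (3110056K07Rik), Psme1 (Emc9), Psmc3 (Slc39a13) and, outside the subunits, Psmc3ip (Mlx). On the same strand Gm26938 overlaps Psmg3 and Gm21972 overlaps Psmd1. The values of these genes carry the same uncertainty. Psma8 and Psmg2 were not part of this search for overlaps. Psmb11, the thymus subunit, did not exceed 7.42 CPM in any germ-like pool. Its rise into the arrest window (log2 difference 2.09, adjusted p = 0.0327) was lost in 4 alternatives.

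Macrophages express the immunoproteasome, and their markers were read in the same pools. In the germ-like pools of E14.5 to PND0 Ptprc was at 0.0 to 5.94 CPM, Csf1r at 0.0 to 2.41, C1qa at 0.0 to 2.45 and Adgre1 at 0.0 to 3.64 CPM. The summed level of the 6 macrophage markers was 1.22 to 49.1 CPM there, against 0.910 to 9.68 CPM in gonadal germ cells. Markers of other cells were higher in part of these pools as well. The summed level of the Sertoli markers was 28.7 to 307 CPM, against 18.8 to 31.1 CPM in gonadal germ cells, and that of the interstitial and peritubular markers 5.23 to 212 CPM, against 1.27 to 27.95 CPM. For the Leydig markers it was 4.49 to 615 CPM against 2.36 to 46.75 CPM, and for the visceral endoderm markers 41.5 to 568 CPM against 4.65 to 74.9 CPM. The part of these cells in the rise of the immunoproteasome genes was not tested. In the 29 gonadal somatic pools compared with germ cells Psmb8 was at 0.0 to 9.85 CPM, below its level in the germ-like pools of E17.5 to PND0. Outside these pools it was above that range in somatic cells of PND12 replicate 1 and adult replicate 1 (627 of 14377002 UMIs in the latter). It was also above it in macrophage-like cells of E11.5 replicate 1 (198 of 16539941 UMIs). The range of the 29 pools thus does not hold for all somatic cells. Cells of E6.5 and E7.5 also held Psmb8, at 2.71 to 65.7 CPM.

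**Figure D3:**
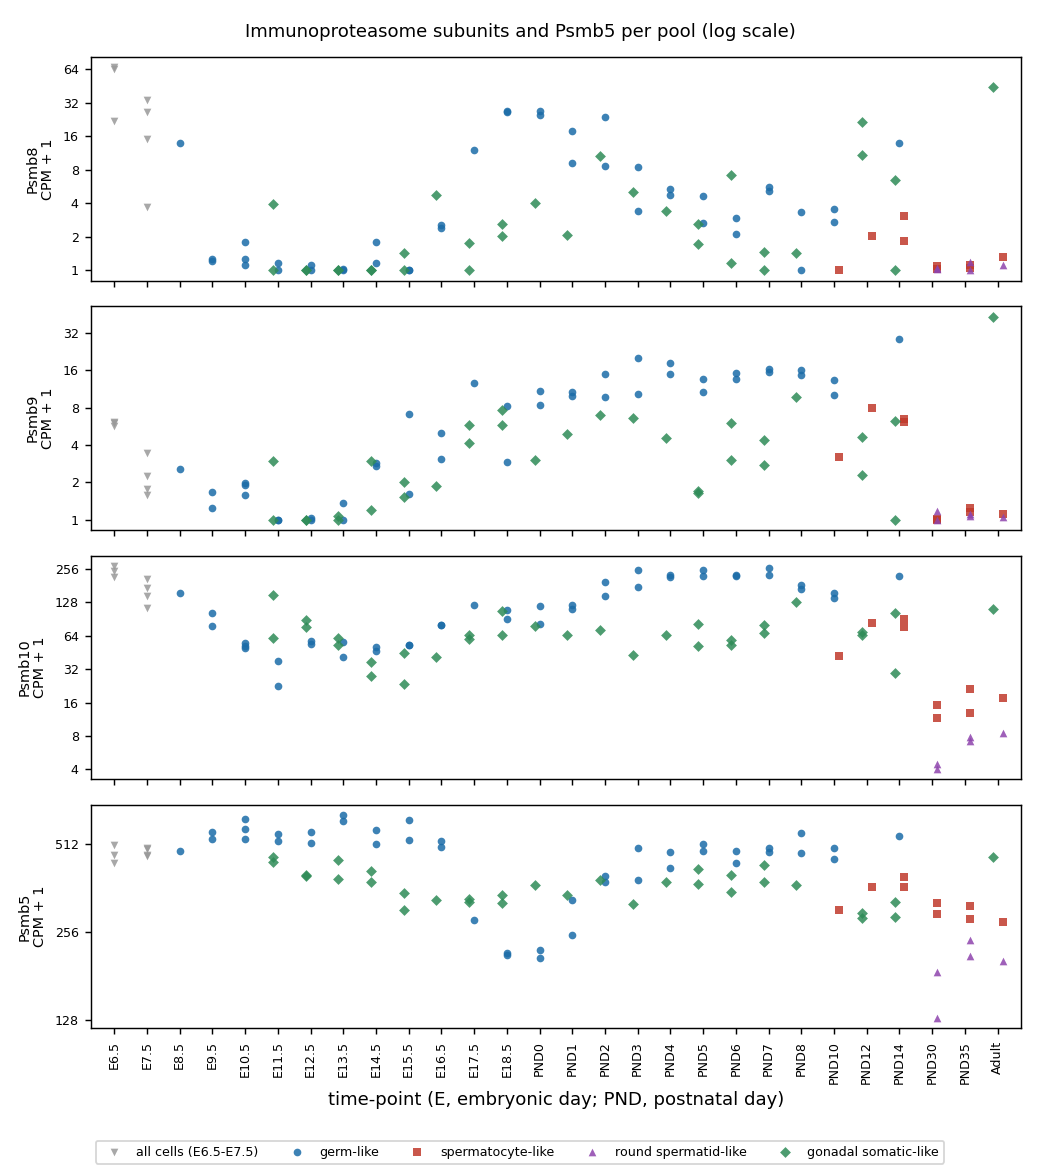
CPM plus 1 on a log axis (y) of the immunoproteasome subunits Psmb8, Psmb9 and Psmb10 and the standard subunit Psmb5 in each pool, by time-point (x), with 1 panel for each gene. Psmb8 is at 23.8 to 26.1 CPM in the germ-like pools of E18.5 and PND0, where Psmb5 is at 208 to 221 CPM.

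From early postnatal germ cells to later spermatogonia 0 of 49 subunits were called by edgeR, 0 by DESeq2, and 0 were under 0.05 unadjusted. Over all genes tested 0.654% were called, 0.3595% as higher and 0.2945% as lower. The later window has 3 pools, of which that of PND14 holds 16 cells.

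From later spermatogonia to spermatocytes 8 of 49 subunits rose and 12 fell, with a median log2 difference of -0.02. Over all genes tested 42.5% were called, 25.6% as higher and 16.85% as lower, so the share of members, 40.8%, was near the background. By library size alone, which moves the median of all genes by -0.493, 5 rose and 30 fell. By DESeq2 10 rose and 15 fell. Without replicate 2 no subunit was called, and with only the compared classes in the fit 9 were. When the cells without a class were taken in, 3 pools held both classes, and the fit with pool as a replicate block called 6, of which 1 rose. Without PND12 and PND14 the calls numbered 26, 12 up and 14 down. Against the median, activators and the inhibitor moved most. The 5 activators were all called, 4 lower and 1 higher.

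Psme1 was at 245, 252 and 281 CPM in later spermatogonia, 85.5, 89.99 and 146.6 CPM in spermatocytes of PND12 and PND14 and 0.938 to 4.41 CPM from PND30. Psme2 was at 384, 391 and 476 CPM, then 167, 170 and 180 CPM, then 1.503 to 12.2 CPM. The classes did not overlap for either gene. Psme1 fell 5.37-fold (log2 difference -2.42, SE 0.630, adjusted p = 0.0023) and Psme2 fell 5.23-fold (log2 difference -2.39, SE 0.684, adjusted p = 0.00513), averages over spermatocyte pools that differ this widely. Both calls were lost without replicate 2 (log2 differences -2.15 and -2.50) and with only the compared classes in the fit (-2.37 and -2.31). Without PND12 and PND14 both falls were larger, at -5.74 and -5.17. The 320 spermatocytes of adult replicate 1 without a class are left out of these levels. They held 8643 UMIs of Psme1 and 16641 of Psme2 among 105943098, above the range of the classed pools from PND30. Psme2b is an intron-free copy of Psme2 and overlaps Gm12185, so reads may be split between these and its values are uncertain.

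Psme4, the PA200 activator that binds acetylated histones in the testis, went the other way. It was at 25.5, 26.2 and 30.5 CPM in later spermatogonia, 40.7, 47.3 and 64.9 CPM at PND12 and PND14 and 108.8 to 176 CPM in spermatocytes from PND30. All spermatocyte pools were above all pools of later spermatogonia. Psme4 rose 6.00-fold (log2 difference 2.58, SE 0.47, adjusted p = 2.99e-05). Psmf1 was at 77.2, 78.99 and 84.5 CPM in later spermatogonia and 89.1 to 197 CPM in spermatocytes, again without overlap, and rose 3.00-fold (log2 difference 1.58, SE 0.288, adjusted p = 3.41e-05). Both rises were lost without replicate 2 (log2 differences 2.69 and 1.57) and with the block (1.05 and 0.57). Psme3, the nuclear PA28 subunit, fell 1.85-fold (adjusted p = 0.0137), a call that was lost without either replicate (log2 differences -0.55 and -1.495).

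The sequences before Psme2 and Psme4 are shown as members of the activator family that moved in opposite directions. Both are RefSeq's on GRCm38.p6, 5′ to 3′ up to the base before the gene start. Bases inside the annotated gene itself were left out, and capitals mark every match of GGGCGG on either strand.
Psme2, chr14:55591114-55591351, minus strand: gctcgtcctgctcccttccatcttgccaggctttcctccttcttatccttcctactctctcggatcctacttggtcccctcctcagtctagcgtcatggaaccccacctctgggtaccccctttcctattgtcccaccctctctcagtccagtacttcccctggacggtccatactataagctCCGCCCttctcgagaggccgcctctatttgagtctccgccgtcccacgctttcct
Psme4, chr11:30771525-30771725, plus strand: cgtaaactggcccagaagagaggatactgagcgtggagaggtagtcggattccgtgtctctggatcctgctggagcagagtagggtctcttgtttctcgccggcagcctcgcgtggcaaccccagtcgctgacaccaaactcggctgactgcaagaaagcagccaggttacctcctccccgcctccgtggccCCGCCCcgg
Each holds 1 GC box. Psme1 (chr14:55578123-55581529, plus strand) and Psme2 (chr14:55587441-55591113, minus strand) are neighbours on mm10, and Psme4 lies at chr11:30771726-30880361.

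Psmd10 encodes gankyrin, a chaperone of the ATPase ring, and lies on the X chromosome. It was at 89.7, 109.9 and 116.5 CPM in later spermatogonia. In spermatocytes it was at 56.5 CPM at PND12, 50.1 and 95.5 CPM at PND14 and 5.02 to 8.53 CPM in the 5 pools from PND30. In round spermatids it was at 91.2, 117.04, 121.4, 129.97 and 141.5 CPM. The PND30-and-later spermatocyte pools were thus below every pool of round spermatids. Psmd10 fell 2.94-fold into spermatocytes (log2 difference -1.55, SE 0.395, adjusted p = 0.00185) and rose 5.19-fold into round spermatids (log2 difference 2.37, SE 0.350, adjusted p = 1.56e-07). Psmd5, another chaperone of that ring, was at 272 to 340 CPM in later spermatogonia, 37.4 to 231 CPM in spermatocytes and 6.48 to 20.2 CPM in round spermatids. It fell 2.53-fold and 5.45-fold (adjusted p = 4.17e-04 and 9.61e-10).

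The immunoproteasome subunits fell in spermatocytes. Psmb10 was at 140, 154 and 219 CPM in later spermatogonia, 75.6 to 88.9 CPM at PND12 and PND14 and 10.6 to 20.03 CPM from PND30, without overlap, and fell 3.42-fold (log2 difference -1.77, SE 0.359, adjusted p = 1.58e-04). This call was lost without replicate 2 (-1.96) and with only the compared classes in the fit (-1.73). Psmb8 and Psmb9 were at 1.74 to 12.9 and 9.12 to 27.7 CPM in later spermatogonia and at most 0.328 and 0.232 CPM in spermatocytes from PND30. These levels leave out the 320 spermatocytes of adult replicate 1 without a class. Those cells held 686 UMIs of Psmb8, 866 of Psmb9 and 11312 of Psmb10 among 105943098, so the low levels do not hold for all late spermatocytes. Psmb8, Psmb9 and Psmb11 had the largest fitted falls (log2 differences -3.07, -2.67 and -3.47, adjusted p = 0.0287, 0.0207 and 0.00341). They were lost in 7, 5 and 2 alternatives, and that of Psmb11 turned to 0.75 with the block and the added cells.

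Of the cap, Psmd8, a subunit of the lid, was at 263 to 306 CPM in later spermatogonia and 321 to 498.9 CPM in spermatocytes and rose 2.16-fold (adjusted p = 6.48e-04). Psmc3, an ATPase, rose 1.66-fold (adjusted p = 0.0117), from 429 to 612 CPM to 437 to 648 CPM. These ranges overlap almost throughout, and library size alone moves the median of all genes by -0.493 here. The calls of Psmd8 and Psmc3 were not followed one by one under the alternatives. Beside the 25.6% of all genes called higher and 16.85% called lower, 2 of 6 ATPases rose and none fell, which library size alone turned to 1 and 3. Of the 14 other cap subunits 3 rose and 2, the chaperones Psmd5 and Psmd10, fell, and by library size alone 1 rose and 5 fell.

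From spermatocytes to round spermatids 31 of 49 subunits fell and 3 rose, with a median log2 difference of -0.88. Over all genes tested 52.1% were called, 27.44% as lower and 24.62% as higher, and the median of all genes was -0.18. By library size alone 36 fell and 4 rose, and by DESeq2 21 fell and 12 rose. The fit with pool as a replicate block, over the 5 pools that held both classes, called 33, of which 30 fell. Lower were 6 of 8 alpha subunits, 7 of 11 beta subunits, 3 of 6 ATPases, 9 of 14 other cap subunits, 3 of 5 activators and 3 of 4 chaperones. By DESeq2 the ATPases split into 2 higher and 2 lower, and the other cap subunits into 4 higher and 3 lower. Without replicate 2 the calls numbered 20.

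By family, the mean level of the 7 standard alpha subunits was 176 to 214 CPM in spermatocytes from PND30 and 146.5 to 176 CPM in round spermatids, and that of the 7 standard beta subunits 225 to 264 CPM and 132.2 to 196 CPM. The 6 ATPases were at 291 to 323 CPM and 239 to 271 CPM, and the 14 other cap subunits at 196 to 218 CPM and 119.6 to 180 CPM. The 4 chaperones were at 77.8 to 109.9 CPM and 42.97 to 76.2 CPM, and the 5 activators at 29.2 to 46.8 CPM and 37.45 to 48.5 CPM. Differences between families were not tested. In round spermatids 9 subunits had a median under 10 CPM, and 4 had one over 400 CPM, namely Psmc2 and Psmc3 of the ATPase ring, Psma6 and Psmb6. Psma6 was at 364 to 641 CPM there against 225 to 397 CPM in spermatocytes, and rose 1.81-fold (log2 difference 0.85, SE 0.154, adjusted p = 7.9e-06). The other alpha subunits with a call fell. Psma2, for example, fell to 56.2 CPM on average (log2 difference -2.04), from 255 CPM.

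Psmg3, an assembly chaperone of the alpha ring, was at 18.98 to 61.7 CPM in spermatocytes and 1.85 to 9.02 CPM in round spermatids, without overlap, and fell 8.66-fold (adjusted p = 3.77e-10). Psmd14, the deubiquitinase of the cap, fell 4.87-fold (adjusted p = 3.3e-11), from 137.9 to 289 CPM to 19.9 to 67.4 CPM. Psme1, Psmb9 and Psme2 had the largest fitted falls (log2 differences -4.40, -4.36 and -4.28, adjusted p = 1.18e-06, 7.78e-04 and 7.43e-06). These rest on the spermatocyte pools of PND12 and PND14. From PND30 Psme1 was at 0.938 to 4.41 CPM in spermatocytes and 0.452 to 2.50 CPM in round spermatids, ranges that overlap, and with the replicate block its call was lost (log2 difference -0.78). The call of Psmb9 was lost without PND12 and PND14 (-0.46). Psmb5 fell 1.59-fold (adjusted p = 0.0346), a call that DESeq2 did not make (-0.08) and that was lost without either replicate (-0.77 and -0.54).

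Psmf1 rose a second time. It was at 175 to 197 CPM in spermatocytes from PND30 and at 254, 285, 321, 344 and 508 CPM in round spermatids, without overlap, and rose 2.28-fold (log2 difference 1.19, SE 0.216, adjusted p = 8.98e-06). Within the round spermatids, 3 clusters could be set side by side in the same pools. In the cluster led by 1700001F09Rik Psmf1 was at 226 to 288 CPM in 5 pools. In that led by 4930596D02Rik it was at 381 to 471 CPM in 3 pools, and in that led by 1700016C15Rik, with Oxct2a and Actrt3, at 512, 695 and 721 CPM. Psme3 was at 16.53 to 28.3, 29.7 to 37.01 and 169 to 275 CPM in the same order, and Psmd10 at 133.4 to 151, 107.8 to 136.2 and 37.5 to 59.6 CPM. The clusters were made without these genes, share their animals, and were not tested. Psme3 did not differ between spermatocytes and round spermatids by the test (log2 difference 0.27, adjusted p = 0.389).

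**Figure D4:**
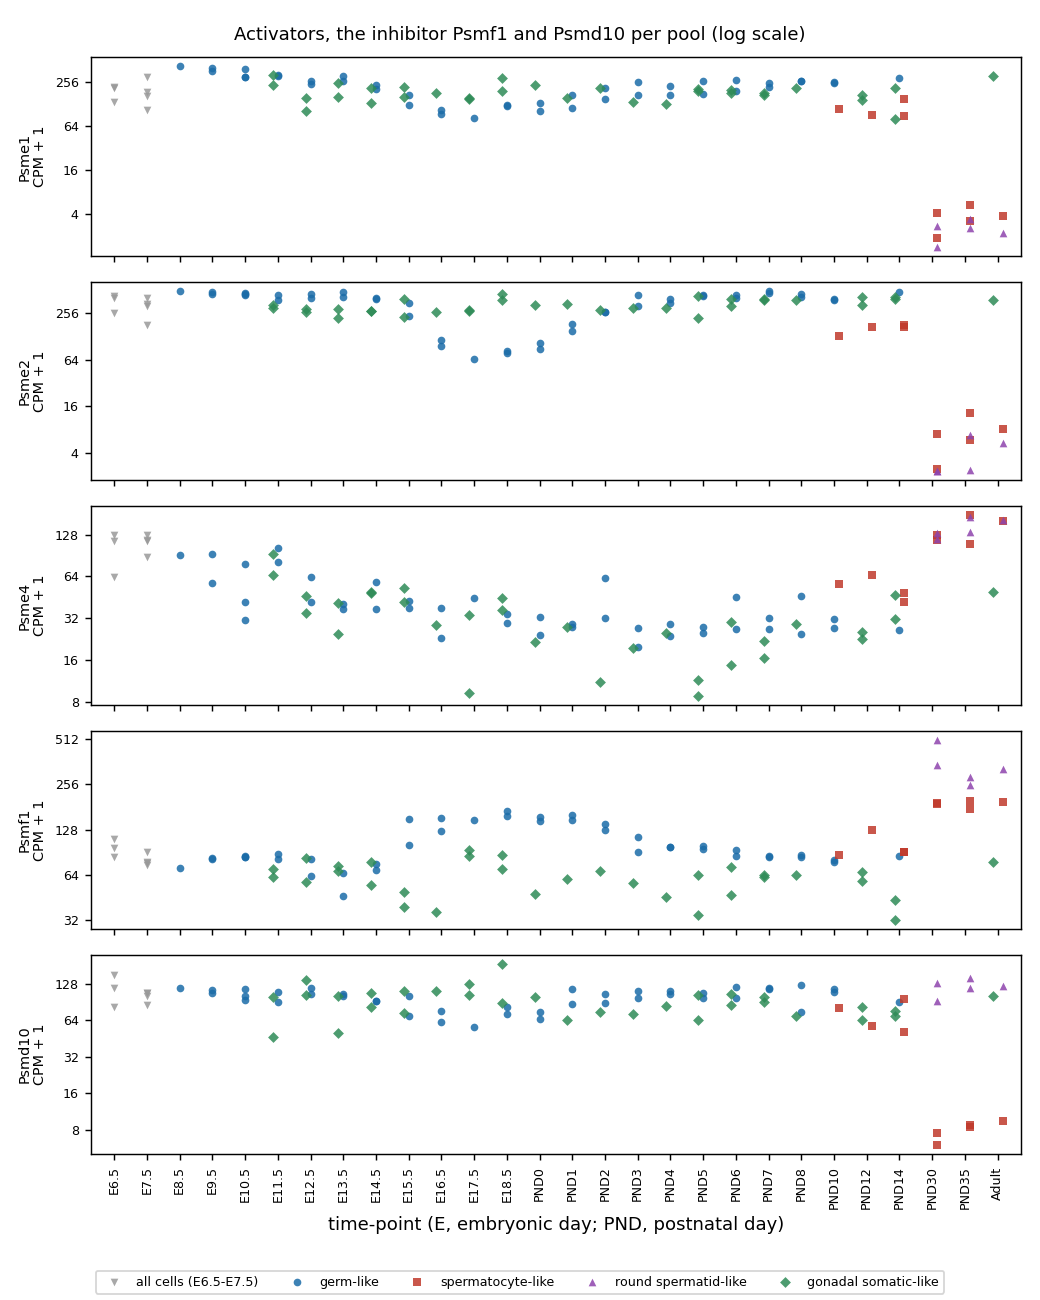
CPM plus 1 on a log axis (y) of the activators Psme1, Psme2 and Psme4, the inhibitor Psmf1 and Psmd10 in each pool, by time-point (x). Psme1 and Psme2 are at 0.452 to 12.2 CPM in spermatocyte-like and round spermatid-like pools from PND30, where Psme4 is at 108.8 to 176 CPM and Psmf1 at 175 to 508 CPM.

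The sort by DNA content at PND30 compares cells marked 1N (haploid) with cells marked 4N (replicated DNA, as in primary spermatocytes) without the use of clusters. It has 2 replicates on each side, and its cells are also in the comparison of classes above, so it is not independent of it. Of the cells sorted as 1N, 171 and 81 were round spermatid-like against 21 and 13 spermatocyte-like in the 2 replicates, and of those sorted as 4N 155 and 88 were spermatocyte-like against 36 and 7 round spermatid-like. Cells marked 2N were left out of this comparison. Of 189 such cells in replicate 1, 50 were spermatocyte-like, 2 had no class and the rest were round spermatid-like. In replicate 2, 39 were round spermatid-like and 47 spermatocyte-like. Round spermatid-like cells were thus found in the 1N, 2N and 4N gates, and the reason was not tested. Among 46 subunits tested 4 were higher in 1N cells and 8 lower, against 26.5% called over all genes, 14.07% as higher and 12.4% as lower. By library size alone 3 were higher and 14 lower, and by DESeq2 4 and 13. Psma8 was at 88.3 and 71.7 CPM in 1N and 287 and 327 CPM in 4N cells, and was lower in 1N cells 3.45-fold (log2 difference -1.79, SE 0.258, adjusted p = 0.0103). Psmg3 was at 2.84 and 1.84 CPM against 16.2 and 18.3 CPM (log2 difference -2.72, adjusted p = 0.0117), and Psmd14 at 31.8 and 22.9 CPM against 117.07 and 117.99 CPM (log2 difference -1.95, adjusted p = 0.0103).

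Higher in 1N cells were Psmd10, Psme3, Psma6 and Psmf1. Psmd10 was at 112.6 and 75.9 CPM against 40.04 and 11.9 CPM (log2 difference 2.02, SE 0.538, adjusted p = 0.0316). Psmf1 was at 358 and 541 CPM against 222 and 199 CPM (log2 difference 1.28, adjusted p = 0.0217). Psma6 was at 500 and 701 CPM against 289 and 257 CPM (log2 difference 1.32, adjusted p = 0.0164). For each of these 3 genes both 1N pools were above both 4N pools. With 2 pools a side, the gates did not overlap for 39 of the 46 subunits tested, so this does not set the 3 apart. Psme3 was at 52.8 and 111.1 CPM against 36.2 and 33.1 CPM (log2 difference 1.44, adjusted p = 0.045), which library size alone did not call (1.24). Psma7 was already low in both gates, at 20.03 and 19.8 CPM against 41.8 and 34.3 CPM, and its difference did not pass the test (log2 difference -0.77, adjusted p = 0.128).

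**Figure D5:**
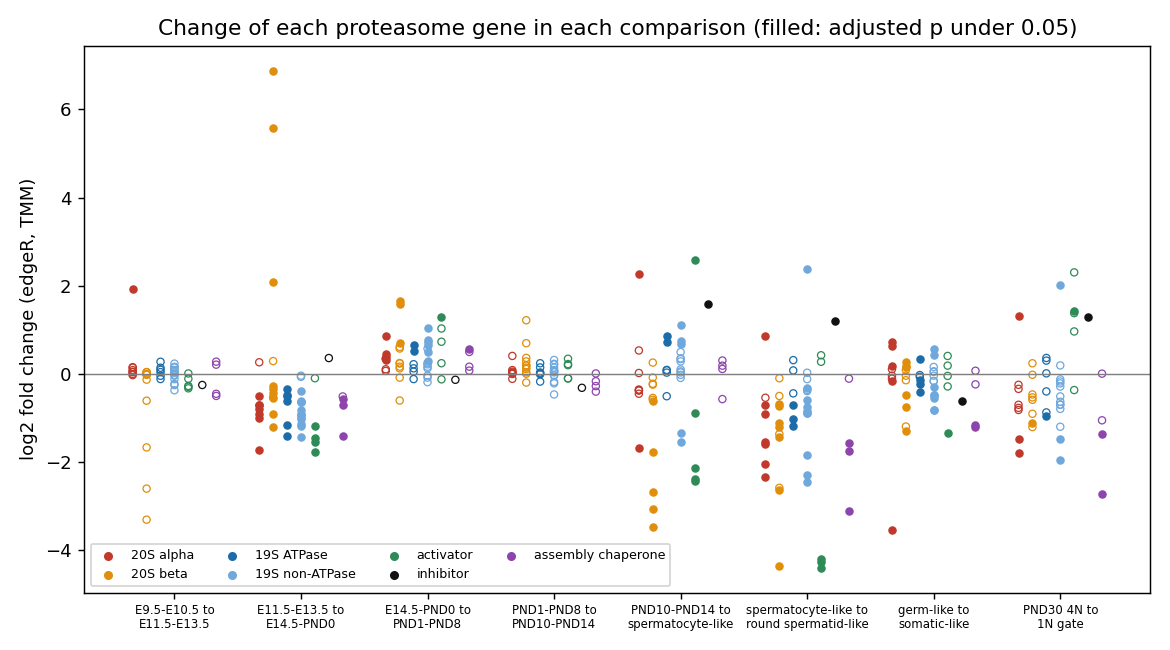
Log2 difference (axis in log2 units) of each subunit in the comparisons of the report, by family of subunits, with the members that passed the test set apart from the others. By this fit 38 of 49 members fell from gonadal germ cells to the arrest window, against 18.53% of all genes. From spermatocytes to round spermatids 31 of 49 fell, against 27.44%. Both counts depend on scaling. Library size alone gave 17 falls and 9 rises in the former, and DESeq2 gave 21 falls and 12 rises in the latter.

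Gonadal somatic cells were compared with the germ cells of the same 29 pools of E11.5 to PND14, with the pool as a block. The germ cells here include spermatocytes, which are all of them at PND12 replicate 2 and 183 of 191 and 349 of 365 at PND14. Of 48 subunits tested 9 were higher in somatic cells and 18 lower, with a median log2 difference of -0.13, while 71.3% of all genes were called, 30.73% as higher and 40.55% as lower. By library size alone 4 were higher and 31 lower, and by DESeq2 8 and 25. The mean level of the 49 subunits was 247 ± 19.9 CPM in somatic cells and 291 ± 33.98 in germ cells (n = 29 each). Psma8 was at 0.460 to 56.6 CPM in somatic cells (median 5.52) and 27.4 to 386 CPM in germ cells (median 71.6), and was 11.6-fold lower in somatic cells (log2 difference -3.54, SE 0.243, adjusted p = 1.97e-14). Its highest somatic levels, 31.2 and 56.6 CPM, were those of replicate 2 at PND12 and PND14. Ddx4 was at 6.92 to 106.8 CPM in the somatic pools, and its part in these levels was not tested. Psma7 was at 539 to 1519 CPM in somatic and 226 to 740 CPM in germ cells, and was 1.65-fold higher (log2 difference 0.72, SE 0.105, adjusted p = 2.8e-07).

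Psme3 was lower in somatic cells, at 12.9 to 82.2 CPM against 72.0 to 184 CPM (log2 difference -1.34, SE 0.128, adjusted p = 4.66e-11). The chaperones Psmg1 and Psmg2, which together start the alpha ring, were lower as well (log2 differences -1.21 and -1.17, adjusted p = 2.73e-13 and 1.08e-14). Psma3 and Psmd7 were higher 1.56-fold and 1.48-fold (adjusted p = 1.26e-04 and 3.34e-04). Of the immunoproteasome genes Psmb9 was lower (log2 difference -1.29, adjusted p = 0.00855) and Psmb10 was lower (log2 difference -0.48, adjusted p = 0.0229), and both calls were lost without replicate 2 (-0.80 and -0.38), that of Psmb10 also without replicate 1 (-0.56). Psmb8 was at 0.0 to 9.85 CPM in somatic cells and did not pass the test (log2 difference -1.19, adjusted p = 0.105). Psmb6 was higher by 0.19 (adjusted p = 0.0136), which library size alone turned to -0.016. Psmb7 was lower (log2 difference -0.75, adjusted p = 0.0017), a call lost without the replicate block (-0.48) and without replicate 2 (-0.51).

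Genes that work with the proteasome were followed in a list of 29, of which 28 were in the table. From gonadal germ cells to the arrest window 17 fell and 1 rose, the latter AI314180 (Ecpas), which binds proteasomes, by 0.91 on the log2 scale (adjusted p = 3.58e-05). Over all genes 18.53% were called lower and 42.91% higher there. Of the list 7 fell and 3 rose by library size alone, and 11 and 3 by DESeq2. The mean CPM of some called falls was higher in the arrest window, as for Adrm1, a ubiquitin receptor of the cap, at 389 against 351 CPM. Ubqln2 and Ubqln4, shuttles that bring ubiquitinated proteins to the proteasome, fell most (log2 differences -2.57 and -2.37, adjusted p = 5.92e-05 and 2.3e-08). In spermatocytes 9 rose and 9 fell, against 25.6% and 16.85% of all genes, and by library size alone 4 rose and 16 fell. Uba1, the ubiquitin-activating enzyme, fell from a mean of 194 to 41.99 CPM (log2 difference -1.98, adjusted p = 0.00181) and Nfe2l2 from 99.7 to 19.5 CPM (adjusted p = 0.00429). In round spermatids 4 rose and 14 fell, against 24.62% and 27.44% of all genes, and by DESeq2 11 rose and 9 fell. The 1N cells had lower Pomp, the maturation factor of the core, at 55.5 against 221 CPM (log2 difference -1.85, adjusted p = 0.0111). The median log2 difference of the list was -0.53 into the arrest window, -0.14 into spermatocytes and -0.65 into round spermatids.

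Of 10 genes of antigen presentation 7 rose into the arrest window and none fell, where 42.91% of all genes were called higher and the markers of somatic cells given above were higher in part of the pools. In gonadal somatic cells 4 of 9 tested were higher than in germ cells and 1, Irf1, was lower, against 30.73% and 40.55% of all genes. By library size alone 3 were higher and 1 lower. Among the 4 was B2m, the light chain of class I, at 417 against 109.7 CPM (adjusted p = 5.69e-10). Nlrc5, the activator of MHC class I genes, rose from a mean of 0.0539 to 7.75 CPM (log2 difference 6.45, adjusted p = 3.21e-04) and Tap2, a peptide transporter, from 0.101 to 8.81 CPM (log2 difference 5.71, adjusted p = 2.45e-04). H2-K1, a class I heavy chain, had fallen from migrating to gonadal germ cells, from 25.6 to 7.49 CPM (log2 difference -1.78, adjusted p = 0.00163). From PND1, Erap1, which trims peptides, rose from 3.82 to 39.2 CPM (adjusted p = 7.67e-06). In round spermatids 7 of the 10 fell, against 27.44% of all genes (4 by DESeq2), among them H2-D1, from 53.8 to 3.30 CPM (log2 difference -3.79, adjusted p = 9.29e-05). Nlrc5 rose there, from 0.500 to 4.45 CPM (log2 difference 3.14, adjusted p = 0.019). Psmb9 (chr17:34181987-34187764, minus strand) and Psmb8 (chr17:34197721-34201454, plus strand) lie close together in the MHC region on mm10.

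The genes whose log2 levels were most like that of Psma8 over the 56 germ class pools were Syce1 (Pearson r = 0.91), Sycp2 (0.907), Mknk1 (0.899), Tuba3a (0.897) and 1700018B24Rik (0.891). Syce1 and Sycp2 encode parts of the synaptonemal complex. Sycp2 was at 322 to 458 CPM in spermatocytes and 87.02 to 170 CPM in round spermatids. The subunits least like Psma8 were Psme1 (-0.556), Psmd10 (-0.535) and Psme2b (-0.518). These are descriptions over pools that share animals and depth.

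The promoters of the 41 subunits with an entry, 250 bases before the start, were searched on both strands. A CCAAT box (CCAAT) was found in 14, or 34.1%, against 37.5% of 27025 genes. A GC box (GGGCGG) was found in 22, or 53.7%, against 35.4%. The antioxidant response core (TGACNNNGC) was in 5 of the 41, against 3112 of 27025 genes, and the interferon response core (GAAA, 2 further bases and GAAA) was in 3 subunits, or 7.32%, against 3.46%. The cyclic AMP response element (TGACGTCA) was in 0 of 41 against 1.77%. These are descriptions of letters in the window and were not tested.

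Psmc3ip, which is no subunit, was at 42.8 to 97.2 CPM from PND1 to PND10, 141.2 to 240 CPM in spermatocytes of PND12 and PND14 and 295 to 329 CPM from PND30. It rose into spermatocytes (log2 difference 2.72, SE 0.351, adjusted p = 1.05e-07).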

How the data were processed

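The authors deposited UMI counts of 31053 genes in 13032 cells, not normalized, with a table of cells that gives time-point, genotype, replicate, genes and UMI counts. Per the labels and the study's methods, reads were made with UMI-tools, seqtk, STAR and featureCounts on mm10, keeping uniquely aligned reads. GEO's labels put none of the samples in a group, so groups came from the table of cells, and all 147 libraries share the same 96 cell barcodes. Of 11896 wild-type cells, 11598 with over 2000 genes and 10000 to 1000000 UMIs were used. Helq-null cells were not analysed here. No doublet caller was run.

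Cells were clustered with scanpy 1.11.5 (igraph 0.11.9, 1000 variable genes, 30 components, 20 neighbours, resolution 1) without 88 genes, among them the subunits. A cluster of 326 cells was divided after it was seen. UMIs were summed over the cells of a pool and class with at least 10 cells. Counts were tested with edgeR 4.0.16 (TMM, quasi-likelihood, filterByExpr, adjusted p under 0.05) in R 4.3.3, all germ windows in 1 fit, somatic cells with the pool as a block. Fits were tested on simulated data. Alternatives were DESeq2 1.42.0, library size alone, no filter, 20000 UMIs a cell (170 cells were too shallow), 20 cells a pool, resolution 0.5, left-out replicates and time-points, and blocks. Replicate numbers name pools of different animals at each time-point, so the same number pairs samples only within a pool. Where replicates were of pooled embryos or cells, p-values measure the spread between these pools.

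The members and lists were chosen with earlier results of these data known. Named were Psma8, Psma7, the catalytic and immunoproteasome subunits, the activators, the inhibitor, and in each comparison the 3 largest rises and falls past the threshold. Psma2, Psmc3, Psmd5, Psmd8, Psmg1 and Psmg2, and Psmd7, Psmd14, Psma3 and Psmg3 outside the comparisons where that rule names them, were chosen after their values were seen. Promoters were searched by exact letters. No protein sequence was used here.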

Additional observations from a re-analysis of the deposited data

Results flagged for a closer look

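Of 60 sets of 4 to 10 pools, of a named subunit or of the mean level, 6 had a highest or lowest pool set apart from the others by Dixon's test. Chance gives about 1 in 20 where all pools of a set are alike. The pools of a set here come from different time-points, so that rate is no yardstick for the 6. In spermatocytes Psma8 was lowest at PND14 replicate 1, at 156 CPM, while the next pool had 324 CPM. Of the 183 spermatocyte-like cells at PND14 replicate 1, 174 were in the cluster led by Prss50, Rad51ap2 and Prdm9, in which Psma8 was at 121.9 CPM. At PND14 replicate 2 that cluster held 203 of 349 cells, so the 2 pools differ in their make-up. In round spermatids Psme3 was highest at PND30 replicate 2, at 122.03 CPM, against 55.5 CPM in the next. Of the 178 cells of that pool 68 were in the cluster led by 1700016C15Rik, in which Psme3 was at 275 CPM. The other 4 were subunits near their floor. Psmb8 was at 0.786 CPM at E10.5 replicate 1, Psmb11 at 2.07 CPM at E10.5 replicate 3, Psmb9 at 0.364 CPM at E13.5 replicate 2 and Psmb11 at 0.643 CPM in spermatocytes of PND14 replicate 2.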

How the results depend on the processing

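Of the 54 named differences that passed the test, 31 no longer passed under at least 1 alternative and 3 changed sign under at least 1. These 54 are those named by rule, and leave out the differences chosen after their values were seen. From gonadal germ cells to the arrest window Psmb6 turned to 0.04 by DESeq2, 0.23 by library size alone and 0.15 with every cell thinned. In somatic cells Psmb6 turned to -0.016 by library size alone and -0.029 with every cell thinned. From spermatogonia to spermatocytes Psmb11 turned to 0.75 with the replicate block and the unclassed clusters taken in. The cause was not tested.

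From migrating to gonadal germ cells the number of subunits called was 2 by DESeq2, by library size alone, at resolution 0.5 and with unclassed clusters taken in, and 4 with only the compared windows in the fit. Library size alone gave 26 into the arrest window and 35 into spermatocytes. With only the compared classes in the fit 9 were called into spermatocytes. Among alternatives chosen after seeing the data, leaving out E16.5 and E17.5 gave 9 after the arrest window, and the replicate block with unclassed clusters taken in gave 6 into spermatocytes. Without 1 replicate number the calls were 0 to 1, 19 to 30, 2 to 6, 0 to 0, 0 to 11 and 20 to 32 along the 6 germline comparisons in order, and 17 to 19 in somatic cells, with fewer pools in each fit. With the replicate block 33 were called into round spermatids, and without it 24 in somatic cells. The block left the gate at 12. The median over the subunits in place of the mean was 331.5 CPM in migrating germ cells, 348.0 CPM in gonadal germ cells and 117.6 CPM in round spermatids.

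No replicate block alone was fitted from spermatogonia to spermatocytes, where 1 pool held both classes. Leaving out a replicate of the gate was not run, since 1 pool a side would remain. At the lowest levels depth limits the values, since Psmb8 and Psmb9 had 8 and 9 UMIs in gonadal germ cells.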

Other observations

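Cells left without a class had levels of their own. The 320 adult cells of replicate 1 in a spermatocyte cluster with Cyp17a1 and Cyp11a1 among its leading genes had 429 CPM of Psma8 and 285 CPM of Psma7. The 40 Leydig-like cells of the same pool had 50.2 CPM of Psmb9 and 128.1 CPM of Psmb10, with 145.1 CPM of Psma8 and 167 CPM of Ddx4. The 26 spermatocyte-like cells of PND10 replicate 2, which entered no comparison, had 129.05 CPM of Psma8 and 352 CPM of Psma7, so Psma8 was 26.8% of the sum. In the E8.5 germ-like cells Psma8 was at 0.701 CPM and Psmb8 at 13.1 CPM.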
